A study of Mus musculus with 18 samples.

Results

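The genes described here encode 5 metalloproteinases that neutrophils keep in granules or on their surface, Mmp8, Mmp9, Mmp25, Adam8 and Adam17, and Timp2, an inhibitor of such enzymes. They were picked by symbol: these are 6 of the 17941 gene rows of the deposited count table, and all 6 were among the 10104 genes with enough counts to be tested. RNA was sequenced from splenic neutrophils of untreated female NZBWF1/J mice, an F1 cross known for lupus-like autoimmunity that worsens with age. The groups are mice aged 14, 20 and 26 weeks, given as 3 stages of that disease, with 6 mice at each age and 1 library of polyA RNA per mouse. The sort took DAPI-negative single cells that were Ly6b+, CD11b+, Ly6G+ and intermediate for Ly6C. There was no group of another strain, so age and stage of disease cannot be told apart.

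Metalloproteinases cut proteins with a zinc ion held by 3 histidines of the catalytic domain. Neutrophils pack the secreted members into granules while they mature in the bone marrow and release them when they leave the blood or meet a stimulus, so that a transcript measured in a mature cell need not follow the protein it already stores. The ADAM enzymes, which stay in the membrane, clip receptors and adhesion molecules off the surface of the cell, and TIMP proteins block the zinc site.

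The zinc site is what the 5 enzymes share in sequence and what Timp2 lacks. It is shown here as 33 coding bases from the reference genome (GRCm38, GENCODE M21 transcripts), on the strand of the gene, with the 3 histidine codons in capitals.
Mmp8, chr9:7563086-7563118, plus strand, exon 5 of 10: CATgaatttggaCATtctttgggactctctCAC
Mmp9, chr2:164951133-164951165, plus strand, exon 8 of 13: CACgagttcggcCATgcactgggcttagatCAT
Mmp25, chr17:23632843-23632875, minus strand, exon 5 of 10: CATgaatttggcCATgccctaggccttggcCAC
Adam8, chr7:139987893-139987925, minus strand, exon 11 of 24: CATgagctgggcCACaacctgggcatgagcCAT
Adam17, chr12:21336732-21336764, minus strand, exon 12 of 20: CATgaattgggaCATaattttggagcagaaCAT
The spacing of the histidine codons is the same in all 5. Between pairs of enzymes 17 to 23 of the 33 bases were identical, with the lowest value for Mmp8 and Adam8 and the highest for Mmp25 with Mmp8 and with Mmp9. No such site was found in the coding sequence of Timp2.

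Library totals ran between 5546624 and 17256379 counts, 8119 to 13164 genes had counts, and the 10 most abundant genes took 9.76 to 34.8% of a library. Replicate 3 of 20 weeks stood apart, with a median correlation of 0.756 with the other libraries of its age, and it is left out in turn with the others. Of the 12 neutrophil markers listed for the check of the cell type, 12 were tested. Levels are in CPM (counts per library total, with edgeR TMM factors). The markers summed to 84667 to 112709 CPM at 14 weeks, 27689 to 67087 at 20 weeks and 83898 to 202624 at 26 weeks. Ltf, a gene of granule cargo, had the highest mean of the list at each age (50645, 18253 and 42557 CPM). The sum thus follows the most abundant genes and is no measure of cell number. The monocyte and macrophage list of 11 genes summed to 200 to 516 CPM at 14 weeks, 562 to 1176 at 20 weeks and 213 to 517 at 26 weeks, nearly all of it Csf1r, Cd68 and Adgre1. C1qa and C1qb, which mark resident macrophages, had 0 counts at 14 and 26 weeks and 2 and 3 counts over the 6 libraries of 20 weeks. Sums of the B cell, plasma cell and eosinophil lists were also higher in every library of 20 weeks than in any of 14 weeks. For B cells the gap was narrow, with 185 CPM in the lowest library of 20 weeks and 181 in the highest of 14 weeks. The T and NK cell sums went the other way, 50.0 to 102 CPM at 20 weeks against 117 to 148 CPM at 14 weeks. In sorted cells measured in bulk, fewer cells of a type and less RNA per cell cannot be told apart.

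Mmp8 and Mmp9 were among the most abundant transcripts of these cells. Together they took 2.62 to 3.39% of all counts at 14 weeks, 1.1 to 1.89% at 20 weeks and 1.09 to 2.03% at 26 weeks. Per kb of exon, where genes of different length can be set side by side, mean levels at 14 weeks were 7673 CPM per kb for Mmp8, 3282 for Mmp9, 200 for Timp2, 150 for Adam8, 94.3 for Mmp25 and 8.13 for Adam17. The order of the means was the same at 20 and 26 weeks. A pair of steps in that order lay within the spread of the libraries at 20 weeks: Mmp8 was above Mmp9 in 4 of 6 libraries, and Timp2 (117.1 CPM per kb) above Adam8 (116.9) in 4 of 6. With the length of the longest transcript in place of all exons, Adam8 stood above Timp2 at 20 weeks, in 3 of 6 libraries.

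**Figure D1:**
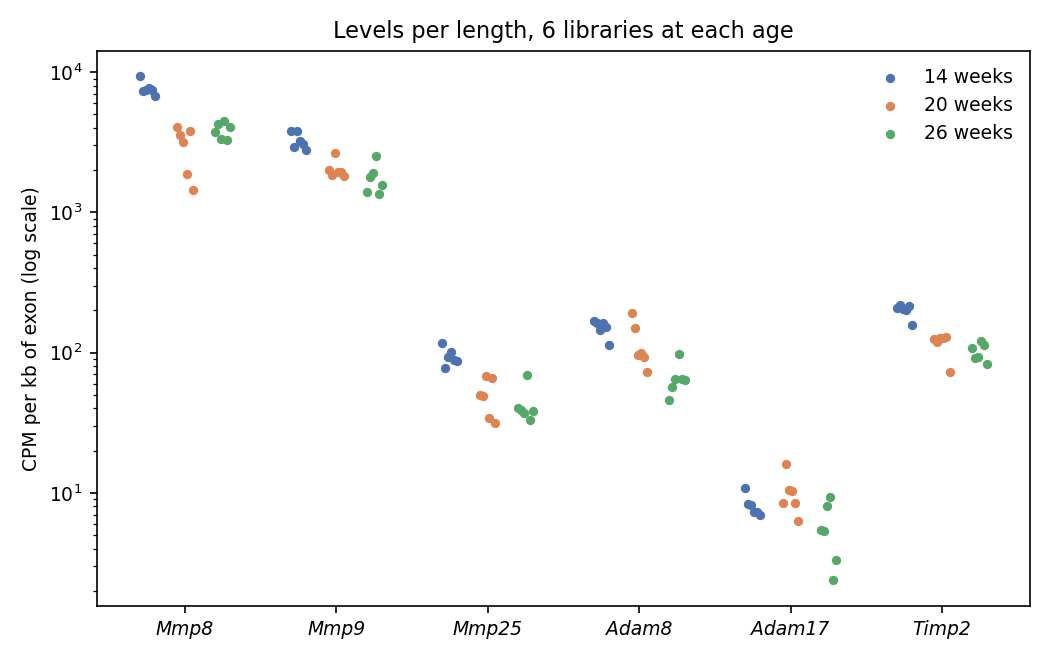
Level of each gene in every library, in CPM per kb of exon on a log axis; each point is a library and colours give the age. Mmp8 and Mmp9 lie far above the other 4 genes, and Adam17 lies lowest at each age.

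Mmp8 encodes the neutrophil collagenase, stored in the secondary (specific) granules, and lies at chr9:7558456-7568485 on the plus strand. Its lowest, median and highest levels were 16338, 18058 and 22777 CPM at 14 weeks, 3523, 8168 and 9928 CPM at 20 weeks and 7906, 9465 and 10814 CPM at 26 weeks. Every library of 14 weeks was above every older library. The mean at 20 weeks was 7274 ± 2625 CPM, against 18608 ± 2180.2 CPM at 14 weeks (SD, n = 6 each), a fall of 2.56-fold (log2 change -1.36 ± 0.20 SE, edgeR adjusted p = 0.000486). At 26 weeks the mean was 9357 ± 1189.5 CPM, 1.99-fold lower than at 14 weeks (-0.99 ± 0.20, edgeR adjusted p = 0.00474). Between 26 and 20 weeks the change was 0.36 ± 0.20 on the log2 scale, with a 95% interval of -0.05 to 0.78, and was not called (edgeR adjusted p = 0.241); a correction for gene length turns its sign, to -0.02.

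The 20-week libraries spread widely for Mmp8. Replicates 6 and 4 held 3523 and 4581 CPM, and the other 4 held at least 7684 CPM. Replicates 6 and 4 also had the lowest neutrophil marker sums of that age, 27689 and 31843 CPM, and the highest monocyte and macrophage sums, 1045 and 1176 CPM. Replicate 2 had a monocyte and macrophage sum of 1004 CPM, near that of replicate 6, with 8653 CPM of Mmp8. The part of these marker sums in the Mmp8 values was not tested. Without replicate 6 the change against 14 weeks was -1.21 ± 0.17 (edgeR adjusted p = 0.000591), and without replicate 3 it was -1.37 ± 0.22 (edgeR adjusted p = 0.00105).

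Mmp9 encodes gelatinase B, the enzyme that gives the gelatinase granules their name, and lies at chr2:164940780-164955850 on the plus strand. It held 9901, 11199 and 13574 CPM at 14 weeks, 6447, 6869 and 9331 CPM at 20 weeks and 4781, 5974 and 8868 CPM at 26 weeks (lowest, median and highest library). The 14-week libraries again lay above all the older ones. Its mean was 7190.4 ± 1074 CPM at 20 weeks, against 11615 ± 1547 CPM at 14 weeks, a fall of 1.62-fold (-0.69 ± 0.15, edgeR adjusted p = 0.00526). The fall to 6210.4 ± 1506 CPM at 26 weeks was 1.87-fold (-0.90 ± 0.15, edgeR adjusted p = 0.00155). Between 26 and 20 weeks no change was called (-0.21 ± 0.15, 95% interval -0.52 to 0.10, edgeR adjusted p = 0.378).

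Mmp25 encodes a membrane-type metalloproteinase (MT6-MMP, leukolysin) that is anchored to the surface of neutrophils by a lipid tail. The gene lies at chr17:23628311-23645277 on the minus strand. It was measured at 410, 483 and 625 CPM at 14 weeks, 167, 263 and 361 CPM at 20 weeks and 174, 204 and 369.8 CPM at 26 weeks. Neither older age reached the lowest library of 14 weeks. The mean at 20 weeks, 265 ± 81.3 CPM, was 1.89-fold lower than the 14-week mean of 500 ± 74.1 CPM (-0.92 ± 0.21, edgeR adjusted p = 0.00696), and the 26-week mean, 227 ± 71.3 CPM, was 2.20-fold lower (-1.14 ± 0.21, edgeR adjusted p = 0.00247). The 2 older ages overlapped (-0.22 ± 0.20, 95% interval -0.65 to 0.21, edgeR adjusted p = 0.524).

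Timp2, the only inhibitor among the 6, encodes a secreted protein that blocks many metalloproteinases and, on the cell surface, takes part in switching on pro-MMP2. It lies at chr11:118301069-118355740 on the minus strand. Libraries of 14 weeks held 609 to 849 CPM with a median of 801, those of 20 weeks 284 to 505 CPM with a median of 494, and those of 26 weeks 322 to 468 CPM with a median of 391. Here too the 14-week libraries stood clear of both older ages. The mean was 456 ± 85.6 CPM at 20 weeks, against 779 ± 86.8 CPM at 14 weeks (-0.77 ± 0.14, edgeR adjusted p = 0.00210), and 395 ± 57.7 CPM at 26 weeks (-0.98 ± 0.14 against 14 weeks, edgeR adjusted p = 0.000983). By p-value Timp2 ranked at 13 among all genes tested between 26 and 14 weeks. The inhibitor fell by 1.71-fold and 1.97-fold at 20 and 26 weeks, beside 1.62-fold and 1.87-fold for Mmp9. Between 26 and 20 weeks the change was -0.21 ± 0.14 (95% interval -0.51 to 0.09, edgeR adjusted p = 0.365).

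Adam8 encodes a membrane metalloproteinase with a disintegrin domain that sheds adhesion molecules from leukocytes, and lies at chr7:139978932-139992562 on the minus strand. Its levels were 528, 728 and 774 CPM at 14 weeks, 338, 452 and 882 CPM at 20 weeks and 214, 298 and 456 CPM at 26 weeks. At 20 weeks replicate 1 was above every 14-week library and 4 replicates were below all of them, whereas the 26-week libraries all lay under those of 14 weeks. The mean at 20 weeks, 542 ± 205 CPM, was not called against the 697 ± 91.3 CPM of 14 weeks (-0.36 ± 0.21, 95% interval -0.80 to 0.07, edgeR adjusted p = 0.326). At 26 weeks it was 305 ± 81.0 CPM, 2.28-fold lower than at 14 weeks (-1.19 ± 0.21, edgeR adjusted p = 0.00227) and 1.78-fold lower than at 20 weeks (-0.83 ± 0.21, edgeR adjusted p = 0.0105). The 26-week and 20-week ranges overlapped.

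Adam17 encodes TACE, the sheddase of tumour necrosis factor, and lies at chr12:21323509-21373632 on the minus strand. It was the least abundant of the 6, with 49.3, 55.5 and 77.6 CPM at 14 weeks, 44.8, 66.8 and 114 CPM at 20 weeks and 17, 38.4 and 66.5 CPM at 26 weeks. All 3 ages overlapped. It was the one gene of the 6 not called in the test of any change with age (edgeR adjusted p = 0.10). That test called 23% of all genes tested. Its mean at 20 weeks was 71.2 ± 23.6 CPM, against 58.2 ± 10.3 CPM at 14 weeks (0.29 ± 0.28, 95% interval -0.30 to 0.88, edgeR adjusted p = 0.606). The 26-week mean of 40.2 ± 19.0 CPM gave -0.53 ± 0.28 against 14 weeks (95% interval -1.12 to 0.06, edgeR adjusted p = 0.277). Against 20 weeks it gave -0.82 ± 0.28 (95% interval -1.41 to -0.23, edgeR adjusted p = 0.0548), a value that lies next to the threshold and is called in 9 of 13 alternative analyses. It is also called when 26-week replicate 4 (edgeR adjusted p = 0.0165), 26-week replicate 3 (0.0345) or 20-week replicate 6 (0.0382) is left out. In 15 of the 18 fits with 1 library left out it stays uncalled, with edgeR adjusted p up to 0.145. Adam17 shares 311 exonic bases with Iah1 on the opposite strand and Adam8 shares 46 with Gm16201; the sources used here do not state whether the counting used strand.

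**Figure D2:**
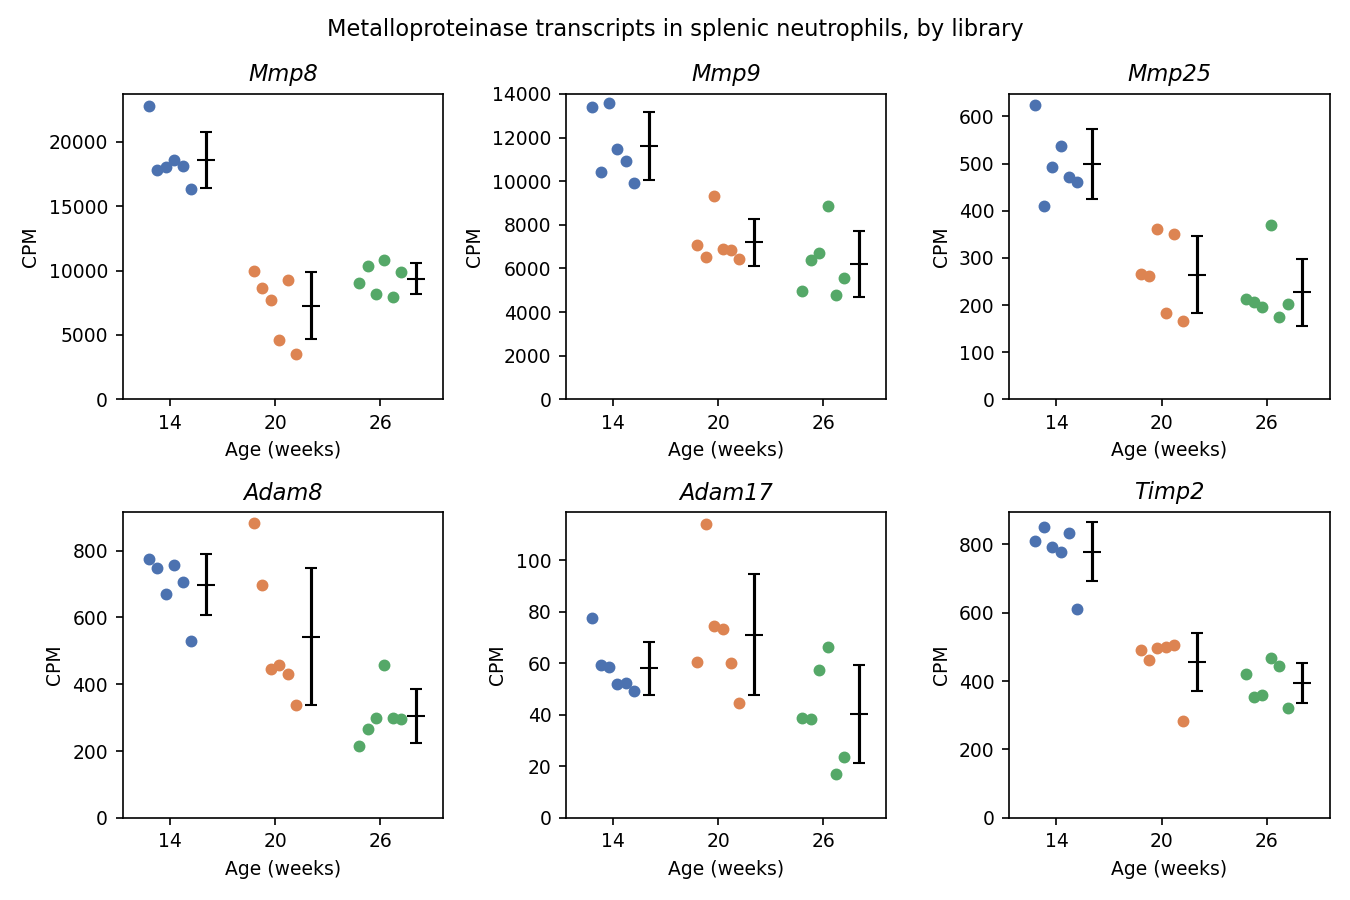
Level of each gene in every library (points, CPM) by age in weeks, with the mean and SD at the right of each age (n = 6). All 14-week libraries of Mmp8, Mmp9, Mmp25 and Timp2 lie above all older ones; Adam8 separates at 26 weeks, and Adam17 overlaps throughout.

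At 20 weeks against 14 weeks, 4 of the 6 genes fell, 0 rose and 2 were not called, where 10.2% of all genes tested were called, 4.93% higher and 5.27% lower. Ranges of libraries did not overlap for the same 4 genes, against 3.93% of all genes that were lower without overlap. The median log2 change of the 6 was -0.73, beside -0.02 over all genes. Corrections for gene length and for GC content, both chosen after seeing the data, left only Mmp8 called in this comparison. Mmp9 changed by -0.47 in both (edgeR adjusted p = 0.204 and 0.235), Mmp25 by -0.62 and -0.64 (0.134 and 0.168) and Timp2 by -0.58 and -0.55 (0.0868 and 0.112). Both corrections also moved the median of all genes to 0.19, and the SE of Mmp9 was 0.23 and 0.24 with them, against 0.15 without. With scaling by library totals alone Mmp9 had -0.53 (edgeR adjusted p = 0.0561), and the median of all genes was 0.14. The 4 calls held with each of the 18 libraries left out, the 20-week replicate 3 among them. The neutrophil marker sum was also lower and the monocyte and macrophage sum higher in every library of 20 weeks than in any of 14 weeks. The neutrophil list was split. Of its 12 genes edgeR called 8 lower (5 with the GC correction) and Csf3r higher (1.21 ± 0.30, adjusted p = 0.0120), and 3 were not called. The part of these markers in the falls was not tested.

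At 26 weeks against 14 weeks, 5 of the 6 genes fell and none rose, with Adam17 not called, where 11% of all genes were called, 5.45% higher and 5.54% lower. The ranges of all 5 were clear of each other, against 3.86% of all genes. The median log2 change was -0.99, beside 0.04 over all genes. These 5 calls held in each of the 13 alternative analyses and with each of the 18 libraries left out. Between these ages the monocyte and macrophage sums overlapped (213 to 517 against 200 to 516 CPM). The neutrophil marker sums overlapped too (83898 to 202624 against 84667 to 112709 CPM). In this sum 4 of 6 libraries of 26 weeks were above the highest of 14 weeks (medians 141050 and 94634 CPM). Of the 12 neutrophil markers edgeR called 4 higher (Ly6g, S100a8, S100a9 and Lcn2) and 4 lower (Itgam, Cxcr2, Mxd1 and Hdc). With the length correction 1 was called higher and 2 lower. Of 6 plasma cell markers 3 were tested, and edgeR called all 3 higher at 26 weeks: Jchain (6.70 ± 1.55, adjusted p = 0.00920), Xbp1 (0.52 ± 0.15, adjusted p = 0.0306) and Igkc (adjusted p = 0.0379). With limma-voom or the length correction 1 of the 3 was called. The sum of the 6 was 184 to 689 against 129 to 186 CPM. The part of these markers in the falls was not tested. The comparison shares its 14-week libraries with the one at 20 weeks, so the 2 are not independent.

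At 26 weeks against 20 weeks, Adam8 alone of the 6 was called, lower, where 16% of all genes were called, 8.03% higher and 7.98% lower. None of the 6 had ranges clear of each other, against 2.27% of all genes that were lower without overlap. The median log2 change of the 6 was -0.22, beside 0.05 over all genes. The sign was negative for 5 of them and positive for Mmp8. The 3 monocyte and macrophage markers tested were also called lower by edgeR. The sums of that list were 213 to 517 CPM at 26 weeks against 562 to 1176 CPM at 20 weeks. The neutrophil marker sum was higher in every library of 26 weeks (83898 to 202624 against 27689 to 67087 CPM). Of the 12 neutrophil markers edgeR called 7 higher and 3 lower (Csf3r, Mxd1 and Hdc). The part of these markers in the fall of Adam8 was not tested.

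**Figure D3:**
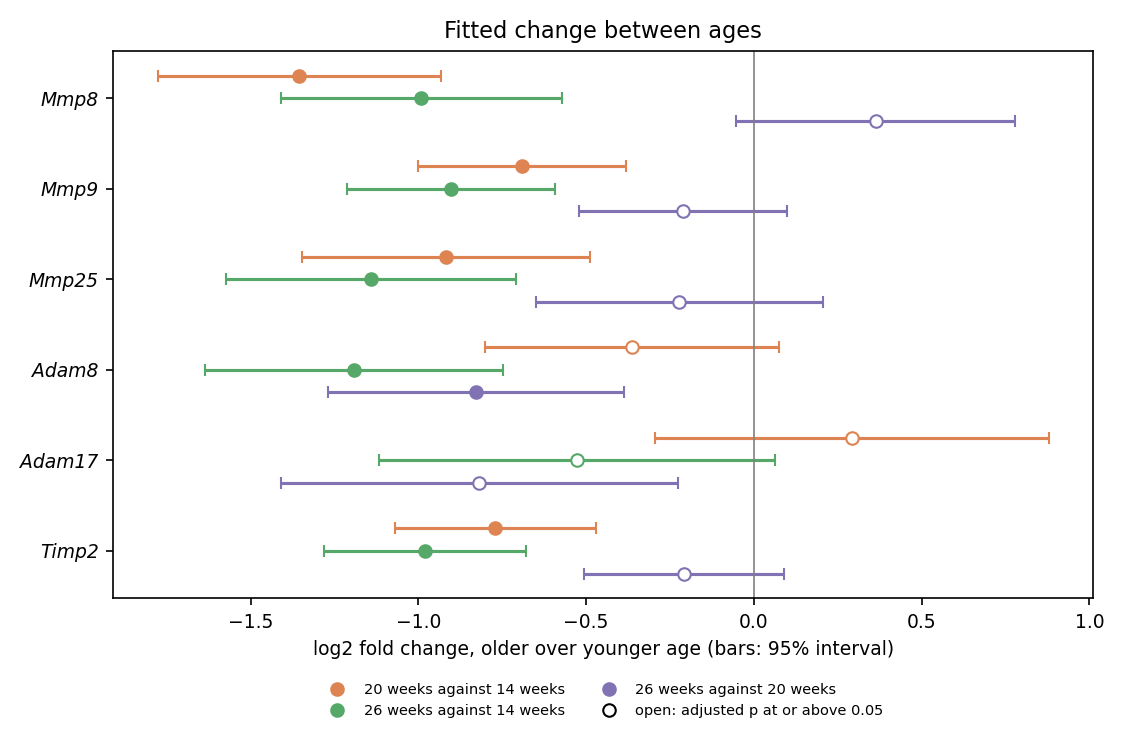
Fitted log2 fold change of each gene between ages, older over younger, with 95% intervals from the edgeR fit of 18 libraries; filled points passed adjusted p under 0.05. The falls of Mmp8, Mmp9, Mmp25 and Timp2 are seen against 14 weeks, while Adam8 falls against both younger ages at 26 weeks.

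**Figure D4:**
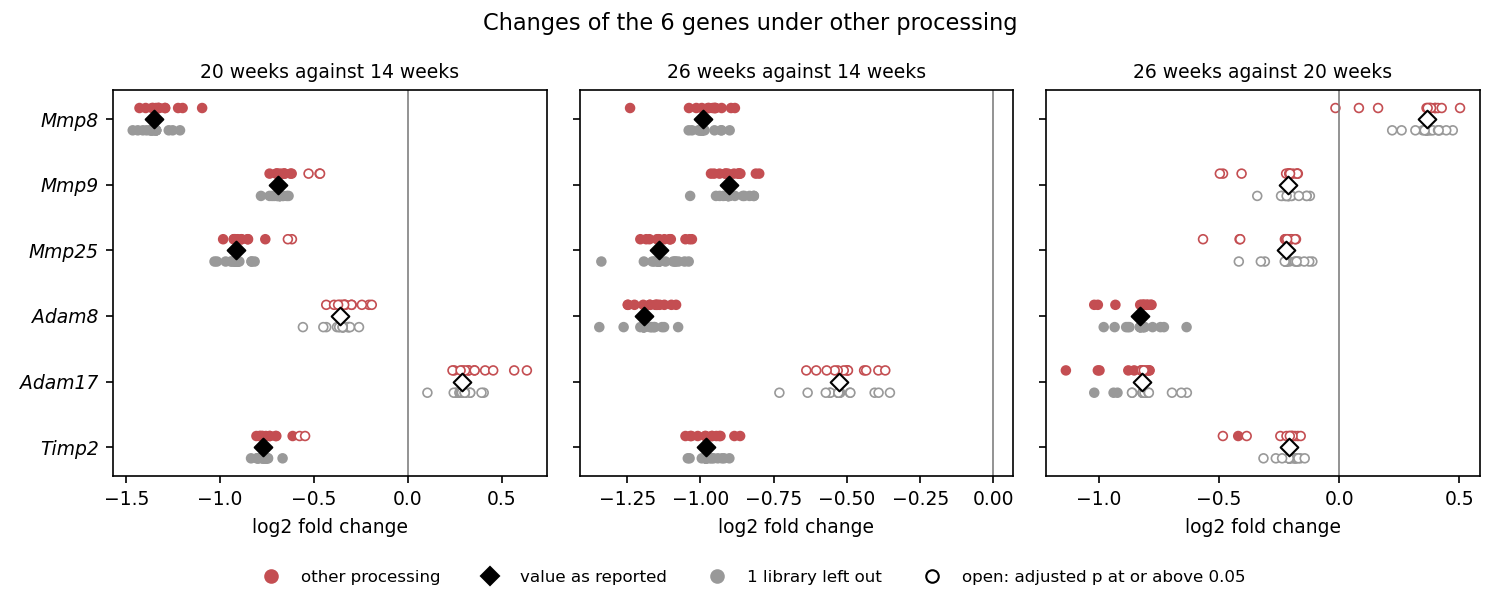
Log2 fold change of each gene, older over younger age, as reported (diamonds), under 13 other ways of processing (upper row of points) and with 1 of 18 libraries left out (lower row); filled symbols passed adjusted p under 0.05. The calls at 26 against 14 weeks hold throughout, while Adam17 at 26 against 20 weeks lies on both sides of the threshold.

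Ratios of counts within a library do not depend on the scaling between libraries. Mmp8 had 1.33 to 1.71 counts for each count of Mmp9 at 14 weeks (median 1.65), 0.547 to 1.40 at 20 weeks (median 1.07) and 1.22 to 1.82 at 26 weeks (median 1.64). In 20-week replicates 3, 4 and 6 Mmp9 had more counts than Mmp8, which occurred in no other library. Mmp9 to Timp2, an enzyme against an inhibitor, overlapped at all ages, with medians of 15.5, 14.3 and 17.7 at 14, 20 and 26 weeks. Adam8 to Adam17 had medians of 12, 6.72 and 6.90 at those ages; 5 of 6 libraries of 20 weeks and 4 of 6 of 26 weeks lay under the lowest 14-week library (9.98). No test was made of the ratios.

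**Figure D5:**
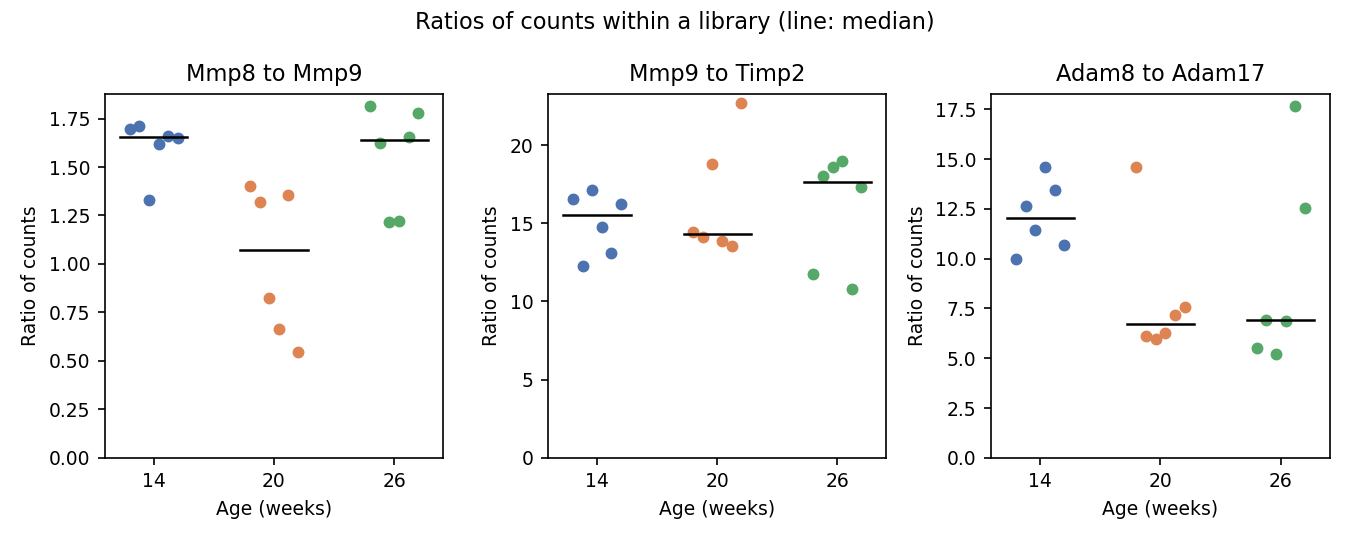
Ratio of counts within each library (points) by age in weeks, with the median as a line. Mmp8 to Mmp9 splits into a higher and a lower set of 3 libraries each at 20 weeks, and Mmp9 to Timp2 overlaps at all ages.

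Within an age, the same libraries tended to be extreme for several genes. Replicate 6 of 20 weeks was lowest for 6 of 6 genes and replicate 4 of 26 weeks highest for 6 of 6. At 14 weeks replicate 6 was lowest for 5 genes and replicate 1 highest for 4, and at 26 weeks replicate 5 was lowest for 4. Replicate 6 of 20 weeks had the lowest share in its 10 most abundant genes of all libraries (9.76%) and replicate 5 of 26 weeks the highest (34.8%) and the fewest counts (5546624). Genes of 1 library share its scaling factor, so these are not separate observations. Without replicate 4 of 26 weeks, the log2 changes against 14 weeks were -1.04 ± 0.13 for Mmp9, -1.34 ± 0.19 for Mmp25 and -1.35 ± 0.21 for Adam8 (edgeR adjusted p = 9.62e-05, 0.000147 and 0.000301).

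The genes whose levels followed each of the 6 most closely over the 18 libraries were found by Pearson r of log2 CPM. The points share libraries, depth and the differences between ages, so the values are a description. For Mmp8 they were Crispld2 (Pearson r = 0.94, Spearman correlation 0.86), Cd177, a surface glycoprotein that is also held in secondary granules (0.94, 0.95), and the interferon-inducible gene Samd9l (0.94, 0.89). For Mmp9 they were Rps6ka1, a ribosomal S6 kinase (0.97, 0.97), Itgb2, the beta chain of the leukocyte integrins (0.95, 0.94), and the Tec family kinase gene Bmx (0.93, 0.92). Those nearest Mmp25 were Itgam, which encodes CD11b (0.96, 0.94), the phosphodiesterase gene Pde2a (0.95, 0.91) and Itgb2 (0.95, 0.93). CD11b is one of the proteins used in the sort.

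Adam8 was followed by Myo1f, a class I myosin of leukocytes (0.96, 0.98), Arhgef1, a guanine nucleotide exchange factor (0.93, 0.89), and Mxd1, a partner of MAX (0.92, 0.88). Adam17 was followed by the ubiquitin ligase gene Arih2 (0.92, 0.78) and the RNA-binding protein gene Ewsr1 (0.90, 0.81). Nearest to Timp2 were Xdh, xanthine dehydrogenase (0.93, 0.89), Tmcc1 (0.91, 0.90) and Prkcb, protein kinase C beta (0.90, 0.81). With age means subtracted first, Rps6ka1, Itgam and Arih2 kept position 1 for Mmp9, Mmp25 and Adam17 among 8871 genes, with r = 0.88, 0.88 and 0.90, while Crispld2 was at position 54 for Mmp8. Bmx was then at position 35 for Mmp9, and Tmcc1 and Prkcb at 37 and 101 for Timp2. By Spearman correlation over the 18 libraries, Rps6ka1 and Itgam were at position 1, Arih2 at 21.5, Prkcb at 64.5 and Crispld2 at 81.

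Among all metalloproteinase genes, the MMP family had 8 tested members, of which edgeR called Mmp8, Mmp9 and Mmp25, all lower, at 20 weeks and at 26 weeks against 14 weeks. Of all genes tested, 5.27% and 5.54% were called lower in these comparisons. Between 26 and 20 weeks the one call of edgeR was Mmp13, lower, with 1 count over the 6 libraries of 26 weeks against 217 over those of 20 weeks. DESeq2 called 2 of the 8 higher and 1 lower in this comparison, limma-voom 2 higher and 0 lower, and edgeR with the length or GC correction 1 higher and 1 lower. Of 7 tested ADAM genes, Adam8 and Adam17 among them, edgeR called 0 at 20 against 14 weeks (3 had an unadjusted p under 0.05, DESeq2 called 1 and limma-voom 0). At 26 against 14 weeks Adam8 and Adam19 fell, the second to 78.7 ± 41.0 CPM, against 174 ± 40.6 CPM (-1.15 ± 0.34, edgeR adjusted p = 0.0351), a call that the length correction ends. At 26 against 20 weeks Adam8 fell and Adam22 was called higher, with 129 counts over 6 libraries against 14; the second is not called with the length correction or library totals alone. Of the 4 tested ADAMTS genes edgeR called 0 in each pair of ages; at an unadjusted p under 0.05 there were 1, 1 and 0 (20 against 14, 26 against 14 and 26 against 20 weeks), DESeq2 called 0, 1 and 1, and limma-voom 0, 1 and 1. The other inhibitor tested was Reck, a membrane-anchored inhibitor of MMPs, which fell to 40.1 ± 23.4 CPM at 20 weeks, against 93.3 ± 18.2 CPM at 14 weeks (-1.22 ± 0.32, edgeR adjusted p = 0.0183), and was at 73.5 ± 16.4 CPM at 26 weeks.

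Proteins that mature ADAM17 and proteins that it sheds were read from lists of 4 and 6 tested genes. Of the first, edgeR called 0 at 20 against 14 weeks (1 at an unadjusted p under 0.05, 1 with DESeq2 and 0 with limma-voom). Furin, the convertase that removes prodomains, fell to 78.8 ± 33.9 CPM at 26 weeks, against 206 ± 49.3 CPM at 20 weeks (-1.39 ± 0.26, edgeR adjusted p = 0.00128), and the related Pcsk7 fell at 26 weeks against 20 weeks (-0.76 ± 0.24, edgeR adjusted p = 0.0387). Against 14 weeks Pcsk7 was also called lower (-0.80 ± 0.24, edgeR adjusted p = 0.0388), but not with RLE factors, upper quartile factors or the length correction. Of the 6 substrates, 4 rose at 20 against 14 weeks: Icam1 (3.09 ± 0.59), the interleukin 6 receptor gene Il6ra (0.80 ± 0.18) and the tumour necrosis factor receptor genes Tnfrsf1a (0.65 ± 0.16) and Tnfrsf1b (1.53 ± 0.43), with edgeR adjusted p of 0.00243, 0.00797, 0.0144 and 0.0262. At 26 against 20 weeks Il6ra (-0.55 ± 0.18), Tnfrsf1a (-0.80 ± 0.16) and Tnfrsf1b (-1.43 ± 0.42) fell, with edgeR adjusted p of 0.0482, 0.00244 and 0.0255. At 26 against 14 weeks Icam1 rose (2.13 ± 0.57, edgeR adjusted p = 0.0201). The median log2 change of the 6 was 0.73, 0.18 and -0.89 in the 3 comparisons (20 against 14, 26 against 14 and 26 against 20 weeks). Over all genes tested, edgeR called 4.93%, 5.45% and 8.03% higher and 5.27%, 5.54% and 7.98% lower in those comparisons.

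Other cargo of the granules is set beside the 6 genes, as background. For these lists and those below, the shares of all genes tested that edgeR called are the yardstick. They were 4.93% higher and 5.27% lower at 20 against 14 weeks. At 26 against 14 weeks they were 5.45% and 5.54%, and at 26 against 20 weeks 8.03% and 7.98%. Of 10 tested genes of secondary granules, 6 fell and 0 rose at 20 against 14 weeks, among them Ltf, which encodes lactoferrin (-1.47 ± 0.29), and Lcn2, whose product binds the MMP9 protein (-1.53 ± 0.26). At 26 against 14 weeks 5 of the 10 rose and 0 fell, when Mmp8, from the same granules, had fallen. That count depends on the processing: 3 rose with the GC correction, 0 with the gene length correction, and limma-voom also called 2 lower. Lcn2 held 27019 ± 10522 CPM at 26 weeks, against 12659 ± 1797 CPM at 14 weeks (1.09 ± 0.26, edgeR adjusted p = 0.00984), and Camp, which encodes the cathelicidin peptide, 10396 ± 5785 against 2873 ± 829 CPM (1.86 ± 0.38, edgeR adjusted p = 0.00510). At 26 against 20 weeks 7 rose and 0 fell, where Mmp8 was not called. The difference between Mmp8 and these genes was not tested.

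Of 10 tested genes of gelatinase granules and secretory vesicles, 6 fell and 1 rose at 20 against 14 weeks, but 1 fell and 2 rose with the gene length correction, and 0 fell and 2 rose with the GC correction. Itgb2 fell to 2071 ± 269 CPM, against 3296 ± 275 CPM (-0.67 ± 0.12, edgeR adjusted p = 0.00210), and Itgam to 1099 ± 237 CPM, against 1972 ± 196 CPM (-0.84 ± 0.19, edgeR adjusted p = 0.00634). At 26 against 14 weeks 3 fell, Itgam, Itgb2 and the C-type lectin gene Clec5a, and the formyl peptide receptor gene Fpr2 rose (1.02 ± 0.25, edgeR adjusted p = 0.0114; not called with the length correction). At 26 against 20 weeks 2 rose and 1 fell. The median log2 change of the list was -0.70, -0.48 and 0.04 in the 3 comparisons (the last negative with library totals, length or GC correction), beside -0.02, 0.04 and 0.05 over all genes.

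Among 11 tested genes of granule release, Snap23, a SNARE protein, rose at 20 against 14 weeks (1.15 ± 0.26, edgeR adjusted p = 0.00704). At 26 against 14 weeks Vamp8 rose (0.71 ± 0.22, edgeR adjusted p = 0.0431; not called with library totals alone or either correction) and Rab27a, a GTPase of granule docking, fell (-0.70 ± 0.17, edgeR adjusted p = 0.0119). Snap23 and the kinase gene Fgr fell at 26 against 20 weeks. A list of 7 genes was made for the primary granules and related proteins. Of these Mpo, Elane, Prtn3 and Ctsg had too few counts to be tested, and 3 were tested (Ctsc, Ms4a3 and Serpinb1a). EdgeR called Serpinb1a, which encodes an elastase inhibitor and not a granule protease. It was lower at 20 than at 14 weeks (-1.03 ± 0.26, edgeR adjusted p = 0.0153), a call that the GC correction ends. It was higher at 26 than at 20 weeks (1.43 ± 0.26, edgeR adjusted p = 0.00124). The tools differed on this list: at 26 against 14 weeks edgeR called 0 of the 3 (1 at an unadjusted p under 0.05) and DESeq2 and limma-voom 1 higher each, and at 26 against 20 weeks DESeq2 called 1 higher and 1 lower and limma-voom 2 higher. Bsg, which encodes the metalloproteinase inducer basigin, held 128 ± 19.2 CPM at 26 weeks, against 79.8 ± 12 CPM at 14 weeks (0.69 ± 0.17, edgeR adjusted p = 0.0127), and it was also called higher than at 20 weeks. Plau, which encodes urokinase, was called higher at 26 than at 20 weeks, with 56 counts over 6 libraries against 3.

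Mmp8 and Timp2 fell together at both older ages, and their promoters are shown because they differ in base composition and in the motifs found. Each window runs from 250 bases before the RefSeq start to 30 after it (GRCm38.p6, 5′ to 3′ on the strand of the gene), with motif matches in capitals.
Mmp8, chr9:7558179-7558458, plus strand: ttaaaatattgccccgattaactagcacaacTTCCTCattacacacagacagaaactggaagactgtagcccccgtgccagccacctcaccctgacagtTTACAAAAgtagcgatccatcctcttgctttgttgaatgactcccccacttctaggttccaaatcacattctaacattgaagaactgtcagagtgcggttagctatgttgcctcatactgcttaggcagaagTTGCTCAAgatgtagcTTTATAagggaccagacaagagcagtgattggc
Timp2, chr11:118355382-118355661, minus strand: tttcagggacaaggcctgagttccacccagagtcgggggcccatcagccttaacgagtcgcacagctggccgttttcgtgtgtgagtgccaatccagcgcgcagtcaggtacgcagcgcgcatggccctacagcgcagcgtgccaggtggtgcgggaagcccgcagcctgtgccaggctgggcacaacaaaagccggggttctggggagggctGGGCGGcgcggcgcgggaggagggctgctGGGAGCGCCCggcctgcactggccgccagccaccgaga
The motifs searched, on both strands, were AP-1 (TGANTCA), C/EBP (TTNNGNAA), PU.1 (GAGGAA), NF-kB (GGG and CC with any 5 bases between them), Sp1 (GGGCGG) and the TATA box (TATAAA). The Mmp8 window, 45.4% G and C, held C/EBP, PU.1 and TATA letters, which 39.3%, 26.0% and 13.1% of 32851 promoter windows hold. The Timp2 window, 68.9% G and C, held NF-kB and Sp1 letters, found in 48.9% and 34.7% of windows. Matches in the Mmp8 and Timp2 windows do not overlap each other. Mmp25 held PU.1, NF-kB and Sp1 letters, Adam8 C/EBP and Sp1, and Adam17 NF-kB and Sp1, and no window of the 5 genes held AP-1 letters (7.46% of all windows). A match is a run of letters and says nothing on whether a factor binds there.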

How the data were processed

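The labels give 18 libraries, 6 for each age, made from RNA of sorted spleen neutrophils (RNeasy Plus Micro, Nextera XT, single-end reads). The authors deposited raw read counts per gene symbol, a table of 17941 genes, one row per symbol. Tools that the submitters' processing notes list, with no role, are STAR 2.4.2a, HTSeq 0.6.1, Trimmomatic 0.32, DESeq and DESeq2 1.12.3, and the build is GRCm38.p4; the sources used here name neither the annotation nor the strand setting. Counts are reads without molecular identifiers. Library totals (5546624 to 17256379) and the spread between mice set the precision, and libraries of 1 age differed by more than counting noise (chi-square per gene 27.2 to 206 over 45 pairs).

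From these counts, edgeR 4.0.16 in R 4.3.3 was run once over 18 libraries, with TMM factors, filterByExpr by age and robust quasi-likelihood F tests. Age was the only term, and p-values were adjusted by Benjamini-Hochberg over the 10104 genes tested (called: under 0.05). CPM are scaled by the TMM factors. The code was tested on a simulated set of counts with known changes at 20 against 14 weeks. Of changes of 1.5-fold, 2-fold and 3-fold, 2.56%, 15.9% and 48.1% were called. Of the calls 9.76% were false, above the 0.05 aimed at. A gene that was not called may thus still have changed. The 6 genes, the lists and the tests were chosen with earlier results of these data known. The text names these 6 in every comparison, for each of them the 3 genes of highest Pearson r (log2 CPM, prior count 2; without antigen receptor segments, pseudogenes, mt- genes and symbols with Gm or Rik), and up to 4 called genes of a list by smallest p. Alternatives were other scaling factors, DESeq2 1.42.0, limma-voom (limma 3.58.1), other filters, other samples and covariates, and each library left out. Scaling by library totals alone and loess corrections for gene length and GC content (known for 98.4% and 98.3% of tested genes) were chosen after seeing the data. Gene models are GENCODE M21 and promoters RefSeq (GRCm38.p6); 5 of the 6 genes matched a promoter. The labels give no batch or sequencing date. Some genes that the naming rule takes are not reported here.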

Additional observations from a re-analysis of the deposited data

Results flagged for a closer look

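In groups of 6 libraries, the highest or lowest value was compared with its nearest neighbour, relative to the range of the group (Dixon's 95% critical value). Of 36 groups checked, 9 had such a value. Chance gives about 1 in 20 for separate groups of normally spread values. These groups share genes and libraries, so the count cannot be set against that rate. Replicate 1 of 14 weeks was high for Mmp8 (22777 CPM, next 18602) and for Adam17 (77.6 CPM, next 59.3). Replicate 3 of 20 weeks, the library that stands apart, was high for Mmp9 (9331 CPM, next 7082). Replicate 4 of 26 weeks was high for Mmp25 (369.8 CPM, next 213) and Adam8 (456 CPM, next 300.3). Timp2 was low in replicate 6 of 14 weeks (609 CPM, next 779) and in replicate 6 of 20 weeks (284 CPM, next 463). The Mmp8 to Mmp9 ratio was low in replicate 3 of 14 weeks (1.33, next 1.62), and the Adam8 to Adam17 ratio was high in replicate 1 of 20 weeks (14.6, next 7.55).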

How the results depend on the processing

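Of 24 results of the 6 genes, 17 kept direction and side of the threshold in every alternative and 22 with every library left out. The genes called numbered 1030 for 20 against 14 weeks (1698 with DESeq2), 1111 for 26 against 14 weeks (1789 with DESeq2, 2633 with limma-voom, 1710 with only the ages compared, 466 with the gene length correction), 1617 for 26 against 20 weeks (2553 with DESeq2) and 2321 for any change (4005 with limma-voom). Of the 6 genes, 4 were called at 20 against 14 weeks but 1 with the length or GC correction. At 26 against 20 weeks 1 was called, but 2 with RLE factors, DESeq2, limma-voom, the 10 CPM filter, the library total as covariate and both corrections, and 3 with library totals alone, where Timp2 joined Adam17 (-0.42, adjusted p = 0.0471). The Mmp8 change between 26 and 20 weeks turned to -0.0156 with the length correction. Adam17 in the test of any change had adjusted p = 0.0158 with limma-voom, 0.0441 and 0.0303 with the length and GC corrections, and 0.0314 without 26-week replicate 4. The causes were not tested.

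Leaving out 1 library gave 702 to 1263, 652 to 1544 and 1141 to 1911 genes called in the 3 pairs of ages and 1780 to 2682 for any change; for 26 against 14 weeks, leaving out 26-week replicates 1, 2 and 6 gave 652, 733 and 726. The 6 genes gave 4 to 4, 5 to 5, 1 to 2 and 5 to 6 calls. The data do not show that replicate numbers pair mice: deviations of same-numbered libraries correlated at -0.0527 to 0.136, above 0.1 in 1 of 18 pairs. With the replicate block 962, 946 and 1573 genes were called, and 2 of the 6 genes at 26 against 20 weeks. The share of calls that were higher, 48.3%, 49.6% and 50.2%, moved to 67.5%, 47.1% and 31.4% with library totals alone, to 74.1%, 39.9% and 26% with the length correction, to 73.5%, 45.3% and 28.5% with the GC correction and to 62% for 26 against 14 weeks with upper quartile factors. The 2 corrections moved the median log2 change of all genes to 0.19 at 20 against 14 weeks and to -0.19 at 26 against 20 weeks, and library totals moved them to 0.14 and -0.16. Adam17 had the fewest counts of the 6, with 81 to 1014 per library at 26 weeks, where its coefficient of variation was 47.3%.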
